A study of Mus musculus with 5 samples.

Results

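Olfactory receptor genes, named Olfr in the mouse, are examined here in embryonic stem cells (ESCs), where their probes were mostly at background but a minority gave a measurable signal. The array carried 951 probes for 907 such genes, besides Olfr460, whose single probe was set aside. A probe was counted as detected where the scanner software marked its spot as positive and well above background on at least 1 of the 3 arrays of the first slide. That choice gave 228 probes of 224 genes, out of 41174 probes for 27962 named genes on the array. The remaining 723 Olfr probes, of 695 genes, served as the silent background, and 12 genes had probes on both sides of the choice. Since the probes were chosen by these detection marks, the detection counts on slide 1 are a description and were not tested.

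Olfactory receptors are G protein-coupled receptors of the sensory neurons of the nose. They form the largest gene family of the mouse genome and lie in clusters on most chromosomes. A mature sensory neuron transcribes a single receptor gene from 1 allele, after the clusters have been packed in silent chromatin, and the receptor signals through the G protein subunit encoded by Gnal, the adenylyl cyclase Adcy3 and a cyclic nucleotide-gated channel. Transcripts of some receptors are also known from tissues outside the nose, such as testis. ESCs are not a site where odorant detection is known.

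RNA was taken from 5 ESC lines, and each line was measured on 1 Agilent array with a single dye. The wild-type (WT) lines were RF8, a line of 129sv origin labelled male, and #620-2, of C57BL6/129sv origin and labelled female. The knock-in lines, of genotype ECAT11EGFP/EGFP and C57BL6/129sv origin, were #620-6, labelled female, and #757-1 and #757-2, labelled male. In the knock-in allele the coding region of ECAT11, a gene expressed in ESCs, is replaced with a cassette of EGFP and a puromycin resistance gene. RF8 is the parental line of the targeting, while the other lines came from blastocysts of heterozygous intercrosses. All lines grew without feeder cells on gelatin, in medium with serum and LIF. Each line is 1 clone and 1 array, so p-values measure the spread between lines. ECAT11 itself has no probe and is not analysed here.

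Slide 1 held RF8, #620-2 and #620-6, and slide 2 held #757-1 and #757-2. Signals are log2 values relative to the 75th percentile of each array, so that 0 is the level of that percentile. The lowest signal well above background lay between -6.22 and -5.90 on slide 1, at -4.49 in #757-1 and at -4.22 in #757-2. The limit therefore moved with the slide, and slide 2 held knock-in lines only. Of the ESC markers, the 9 with a probe, Pou5f1 and Nanog among them, were well above background in all 5 lines. Markers of other cells were present at the same time. Among 8 fibroblast genes 7 were above background in every line, as were 3 of 6 endoderm genes, 5 of 7 neural genes and 4 of 7 male germ cell genes, and their part in the Olfr signals was not tested.

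The 60-base probes show what was measured. The first 6 below belong to genes detected in all 5 lines and the next 3 to the genes with the lowest G+C content among those detected in none. G and C are in capitals, since the base composition of the probes comes up again below. Each is written 5′ to 3′ as the files give it.
Olfr571: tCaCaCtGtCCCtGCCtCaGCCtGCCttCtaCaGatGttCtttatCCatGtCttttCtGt
Olfr1444: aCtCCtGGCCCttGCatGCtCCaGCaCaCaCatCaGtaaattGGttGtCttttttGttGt
Olfr234: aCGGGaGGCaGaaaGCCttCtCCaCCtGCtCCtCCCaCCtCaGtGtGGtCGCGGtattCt
Olfr187: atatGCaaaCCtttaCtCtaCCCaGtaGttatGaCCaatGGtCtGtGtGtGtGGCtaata
Olfr985: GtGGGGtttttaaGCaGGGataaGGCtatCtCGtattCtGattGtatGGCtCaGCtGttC
Olfr544: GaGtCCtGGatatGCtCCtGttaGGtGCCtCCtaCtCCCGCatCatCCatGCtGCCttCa
Olfr66: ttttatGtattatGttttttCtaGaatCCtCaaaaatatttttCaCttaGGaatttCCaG
Olfr156: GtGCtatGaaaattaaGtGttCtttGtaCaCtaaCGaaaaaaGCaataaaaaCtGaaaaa
Olfr77: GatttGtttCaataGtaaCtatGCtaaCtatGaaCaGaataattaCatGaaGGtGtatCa
In the mm7 build of the files, the probe of Olfr571 lies at chr7:98958938-98958997, that of Olfr1444 at chr19:12542425-12542484 and that of Olfr234 at chr15:98484183-98484242. The probe of Olfr187 lies at chr16:58972175-58972234, that of Olfr985 at chr9:40057555-40057614 and that of Olfr544 at chr7:98530527-98530586. The probe named Olfr234 in the files carries an accession that RefSeq now pairs with Olfr279, and 11 of the 228 detected probes have another symbol in RefSeq. Names of the files are kept throughout.

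Of the 951 Olfr probes, 24% were detected on at least 1 slide 1 array, against 70.9% of the 40222 probes for all other genes. The 228 detected probes fell into 87 above background on all 3 slide 1 arrays, 51 on 2 and 90 on 1. The probes seen on a single array were spread over the lines, 32 in RF8, 26 in #620-2 and 32 in #620-6. By line, 158 Olfr probes were above background in RF8, 141 in #620-2 and 154 in #620-6. On slide 2 the numbers were lower, with 54 in #757-1 and 36 in #757-2.

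The slide 2 arrays were not used in the choice. On at least 1 of them 47 of the 228 detected probes were above background (20.6%), and 20 on both. Of the 723 other Olfr probes 22 (3.04%) were above background on slide 2, 1 of them on both arrays (0.138%). For probes of other genes on no slide 1 array it was 311 of 11720 (2.65%), with 0.137% on both. Among the detected probes the share on slide 2 was 7.78% for those seen on 1 slide 1 array, 19.6% for 2 and 34.5% for 3. For probes of all other genes the shares were 8.52%, 13.6% and 88.1%, as the plot of slide 2 detection shows. The Olfr probes seen once or on 2 arrays thus had shares near those of other genes, and those seen on 3 arrays had a lower share.

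**Figure D1:**
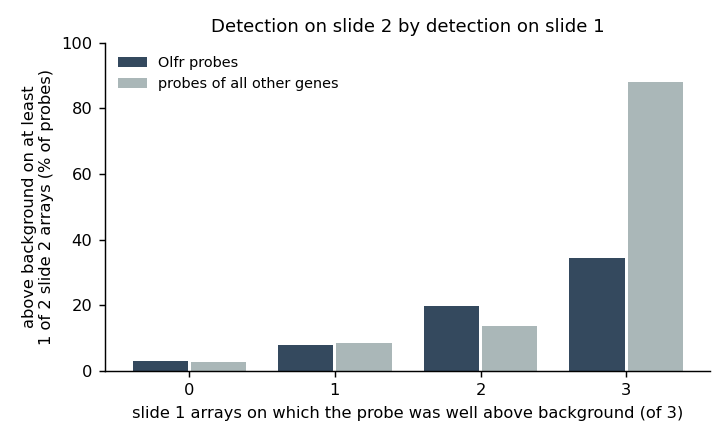
Share of probes, in percent, that were above background on at least 1 of the 2 slide 2 arrays, by the number of slide 1 arrays on which they were above background, for Olfr probes (dark) and probes of all other genes (grey). At 3 slide 1 arrays the share was 34.5% for Olfr probes and 88.1% for the others.

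The lines were also set on 1 scale by counting log2 signals of at least -4.22, the limit of #757-2, on all arrays in place of the marks of the software. By this measure 40 Olfr probes passed in RF8, 34 in #620-2, 31 in #620-6, 50 in #757-1 and 39 in #757-2. The change of measure itself moved #757-2, whose limit stayed the same, from 36 to 39. The range over lines was then 31 to 50, and 164 of the 228 detected probes lay under that limit on all slide 1 arrays. At that limit 18 detected Olfr probes passed on all 3 slide 1 arrays, and of these all 18 passed on at least 1 slide 2 array and 17 (94.4%) on both. For all other genes the share on both was 97.7% of 20442 probes. The single limit was chosen after the data had been seen.

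**Figure D2:**
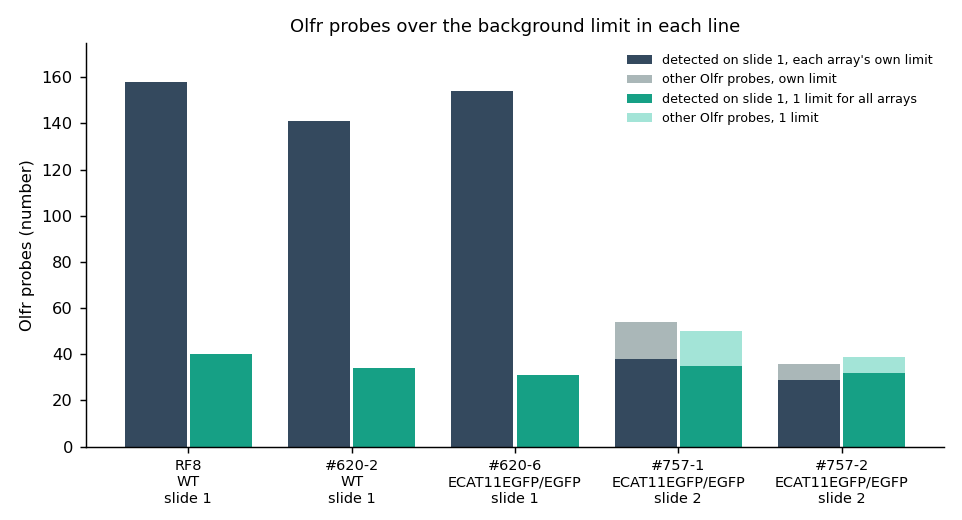
Number of Olfr probes over the background limit in each line, by the marks of the software with each array's own limit (left bar of a pair) and by log2 signals of at least -4.22 on all arrays (right bar). Dark parts are probes detected on slide 1 and light parts the other Olfr probes; with 1 limit the 5 lines held 31 to 50 probes.

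Slide 2 also held Olfr signals absent from slide 1, at a share of 3.04% that was near the 2.65% for probes of other genes. Of the 22 other Olfr probes above background there, 20 reached the single limit, 14 in #757-1 and 7 in #757-2, with 1 in both. Olfr172 was the one probe above background on both slide 2 arrays, at -2.33 in #757-1 and -4.04 in #757-2, while it read -8.30 in RF8, -8.21 in #620-2 and -8.52 in #620-6. It was singled out after its values had been seen, and slide and line cannot be told apart for it.

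In all 5 lines 19 Olfr probes were above background, 2% of the Olfr probes against 51.3% of the probes for other genes. They are the firmest signals of the family in these cells. Their spread over lines was modest, with a median range of 0.52 on the log2 scale, against 0.60 for the 20630 probes of other genes detected in all lines. The range exceeded 2-fold for 4 of the 19 and for 23.5% of the other genes' probes.

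Olfr571 read 0.55 in RF8, 0.27 in #620-2, 0.25 in #620-6, 0.51 in #757-1 and 0.47 in #757-2, and its range of 0.30 was the smallest of the 19. It was the one Olfr probe above the 75th percentile of the array in any line. Olfr234 read -1.68, -1.75, -1.99, -1.62 and -1.71 in the same order of lines, so that the genotypes overlapped for both probes. Olfr462 was as even, between -3.15 and -2.80, and Olfr174 lay between -3.51 and -3.06.

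Olfr187 read -2.62 in RF8, -2.38 in #620-2, -2.56 in #620-6, -1.78 in #757-1 and -1.84 in #757-2. Its slide 2 lines lay above its slide 1 lines without overlap, and #620-6 lay with the WT lines of its slide. Olfr985 went the other way, with -1.42, -0.83 and -0.96 on slide 1 and -2.16 and -1.81 on slide 2. Olfr544, a receptor for the dicarboxylic acid azelaic acid that is also known from fat and liver, read -3.61, -3.72 and -3.89 on slide 1 against -1.71 in #757-1 and -2.42 in #757-2. In these 3 genes the difference followed the slide, with which the lines #757-1 and #757-2 cannot be told apart.

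Olfr1444 read -1.53 in RF8, -2.63 in #620-2, -2.99 in #620-6, -1.51 in #757-1 and -1.79 in #757-2. Both lines labelled female lay below the 3 labelled male. Olfr570 stood out in a single line, at -1.76 in RF8 and between -4.54 and -3.83 in the other 4. Olfr1153 lay between -3.56 and -2.57, Olfr430 between -3.62 and -2.76, Olfr1342 between -3.56 and -2.80, and Olfr744 between -3.48 and -2.97. The genotypes overlapped for the first 3, while for Olfr744 the knock-in lines, at -3.28, -3.17 and -3.48, lay just below the WT lines, at -2.97 and -3.11.

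**Figure D3:**
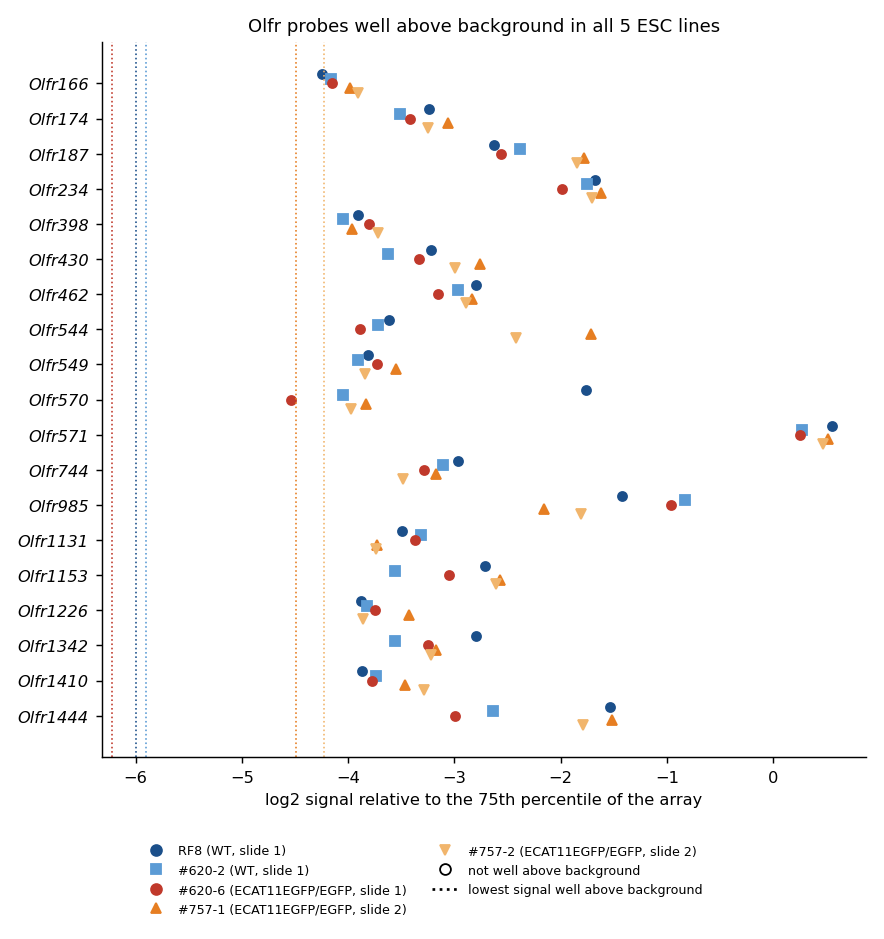
Log2 signal, relative to the 75th percentile of the array, of the 19 Olfr probes above background in all 5 ESC lines, 1 symbol per line, with the genes in order of their number. Dotted lines mark the lowest signal well above background on each array; Olfr571 lies above 0 in every line and Olfr570 is high in RF8 alone.

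Probes printed several times show the error of a spot. Olfr166 had 10 spots and was above background on 9 or 10 of them in each line, with means from -4.24 to -3.91 and SDs of 0.14 to 0.25 over spots. Another 2 genes had 10 spots each and were counted as detected on few of them. Olfr1307 was above background on 1 of 10 spots in RF8, 0 in #620-2 and 3 in #620-6, and the pseudogene Olfr22-ps1 on 2 of 10 spots in #620-2 and on none in the other lines. The other 225 detected probes had 1 spot, for which no such count can be given. On slide 1, probes with 5 or more spots had a median SD over spots of 0.12 to 0.15 between the limit and -3, and of 0.047 to 0.063 above -3.

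Different probes under the same gene name often disagreed. Of the detected genes 16 had 2 probes, and both were detected for 4 of them, Olfr166, Olfr234, Olfr1036 and Olfr1344. For the other 12 the second probe was under the limit on slide 1. Olfr174 read -3.51 to -3.06 with a probe detected in all lines and -8.31 to -6.28 with the other, which was above background in none. Likewise the second probe of Olfr234 was above background only in RF8, at -5.96, and #757-2, at -3.79. RefSeq now pairs the accession of the brighter Olfr174 probe with Olfr175, and that of the brighter Olfr234 probe with Olfr279. In these 2 pairs the probes may therefore measure different genes. The remaining genes with a single detected probe were Olfr42, Olfr57, Olfr154, Olfr493, Olfr800, Olfr914, Olfr1307, Olfr1371, Olfr1393, Olfr1436 and Olfr1518.

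Around the limit the choice was close. Just inside were Olfr1348, the second Olfr234 probe and Olfr611, whose background-subtracted signal reached 1.01 to 1.02 times the limit on 1 slide 1 array. Just outside were Olfr123 at 0.98 times the limit, Olfr849 at 0.976 times and Olfr1316 at 0.967 times.

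A list of 12 receptors whose ligands or expression are well studied was written after the earlier results were known. Of these 5 were detected on slide 1, where 24% of all Olfr probes were, and 1, Olfr544, in all lines. Olfr16, known as MOR23 and expressed in sperm as well as in the nose, read -3.64 in RF8 and was not well above background in any other line. Olfr1507, known as MOR28, was above background in RF8 at -5.66, in #620-6 at -5.77 and in #757-1 at -4.11. Olfr15 was above background in RF8 and #620-2 only, and Olfr1509 in #620-6 only. The probes of Olfr2, Olfr17, Olfr73, Olfr78, Olfr151, Olfr160 and Olfr1508 were above background in none of the 5 lines.

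Base composition differed between detected and other Olfr probes. G+C content averaged 43.4% ± 4.90 (SD, n = 228 probes) for the detected probes and 39.9% ± 4.22 (SD, n = 723 probes) for the others. It was 42.1% for probes on 1 slide 1 array, 42.5% for 2 and 45.3% for 3, and 46.1% for the 19 detected in all lines. Probes of all other genes showed a gap of similar size, 42.5% for those detected on slide 1 and 38.3% for the rest. The part of base composition in the signals was not tested. In the sequences printed above, the 6 probes detected in all lines held 40% to 60% G+C and the 3 silent ones 23.3% to 28.3%. Those 3 were printed for having the lowest G+C content, so that this gap follows from their choice. The other Olfr probes ranged up to 55%.

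**Figure D4:**
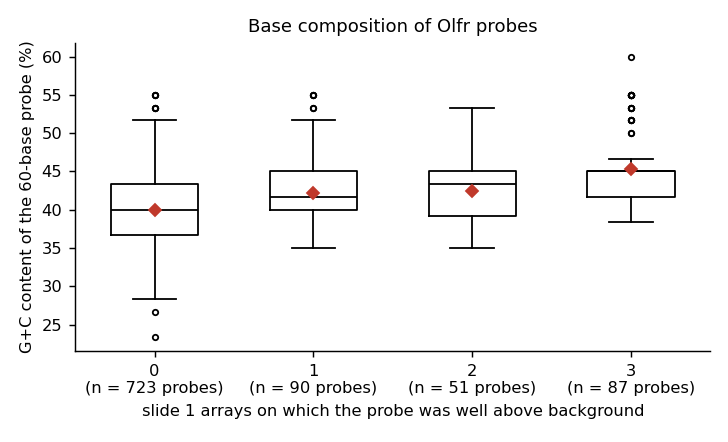
G+C content, in percent, of the 60-base Olfr probes by the number of slide 1 arrays on which they were above background. Boxes show quartiles and median, whiskers reach to 1.5 times the box, circles lie beyond and red diamonds are means, which rise from 39.9% at 0 arrays to 45.3% at 3.

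A probe can also match several transcripts. The files list more than 1 RefSeq accession for 40 of the 228 detected probes (17.5%) and for 14.2% of the other Olfr probes. Among the 19 detected in all lines it was 4, those of Olfr166, Olfr174, Olfr234 and Olfr462.

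Detected genes were found on most chromosomes that carry the family. Chromosome 2 held 47 of 240 Olfr probes, chromosome 7 held 46 of 205, chromosome 9 held 23 of 119 and chromosome 11 held 26 of 61. The nearest Olfr neighbour of a detected probe was itself detected in 57 of 227 cases (25.1%), and that of another Olfr probe in 154 of 720 (21.4%). Of the 19 detected in all lines 4 lay on chromosome 7 within 428471 bases, Olfr544, Olfr549, Olfr570 and Olfr571, on the chromosome whose large cluster holds the class I receptors. That stretch held 22 Olfr probes, of which 8 were detected. Olfr571 and Olfr570 are neighbours there, and yet Olfr571 varied little between lines while Olfr570 was high in RF8 alone.

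The distance to active genes was also measured. The nearest probe of a gene outside the family that was above background in all lines lay at a median of 173027 bases from detected Olfr probes and 246336 bases from the others. It was 146692 bases for probes on 1 slide 1 array, 256372 for 2 and 176558 for 3, with no steady trend. For the 19 detected in all lines it was 89922 bases. The closest was Olfr549, at 8733 bases from Trim21, followed by Olfr544 at 15718 bases from Rrm1, a subunit of ribonucleotide reductase, and Olfr234 at 21028 bases from Kansl2.

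Promoters were read from RefSeq on GRCm38.p6, from 250 bases before to 50 after the start, and were found for 189 of the 224 symbols of detected genes. The median number of CpG dinucleotides was 1 both in these and in 576 other Olfr promoters, against 7 over 27025 promoters of all genes. The homeodomain motif TAATTA, which reads the same on both strands, was in 39 of the 189 (20.6%), in 104 of the 576 (18.1%) and in 6.12% of all promoters. These are matches of letters in a short window.

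The machinery of olfactory neurons was partly present. Of 11 defining markers of olfactory sensory neurons on the array, 2 were above background in all 5 lines, 2 in none, and between 3 and 8 in any line. Omp, the olfactory marker protein, lay between -6.36 and -5.68 and was above background in #620-6 alone. The receptor transporter Rtp1 was above background in RF8 alone, at -5.87, and Rtp2 and the channel Ano2 in no line. The channel subunit Cnga2 was dim, from -5.49 to -4.93 on slide 1, and was not well above background in #757-1 and #757-2. The subunit Cngb1 was above background in every line except #757-1, at -3.95 to -2.69. A probe of Gnal was above background in the slide 1 lines only, at -5.60 to -4.80. Its other probes were above background in fewer lines or in none. Adcy3 lay between -2.67 and -2.58 and Gng13, a G protein subunit, between -2.42 and -1.03. Both are also used in other cells.

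Of 14 listed genes of olfactory signalling with a probe, 7 were above background in all lines: Adcy3, Pde4a, Gng13, Gnb1, Ric8b, Adrbk2 and Arrb2. Of 5 trafficking genes it was 2. Of 13 genes of receptor gene choice and silencing it was 8, the first listed being the homeodomain factor Lhx2, at -2.86 to -1.83. In the genotype comparison below none of the 25 tested signalling probes, of the 4 trafficking probes and of the 15 choice probes was called. At unadjusted p 3 signalling probes, 2 of Gnal and 1 of the exchanger Slc24a4, and 1 choice probe, of Ebf4, passed towards higher signal in the knock-in lines and none towards lower. Over all tested probes 3.34% passed, 679 higher and 288 lower. The Gnal and Slc24a4 probes were not well above background in #757-1 and #757-2, where unmeasured probes read higher than on slide 1, and they were above background in #620-6. These genes are named after their values were seen. The Ebf4 probe read -8.18 in RF8, -8.14 in #620-2, -2.43 in #757-1 and -3.46 in #757-2 (adjusted p = 0.285, limma). Its spot in #620-6 was above background but was marked and set missing, so that the fit set slide 1 against slide 2. Another Ebf4 probe read -5.29 in RF8, -6.40 in #620-2, -6.62 in #620-6, -6.15 in #757-1 and -6.11 in #757-2. A further Ebf4 probe was above background in no line.

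Other chemoreceptor families were detected in part as well. On slide 1, 18 of 117 vomeronasal V1r probes were detected (15.4%), 4 of 9 V2r probes, 1 of 4 Taar probes, all 3 Tas1r taste receptor probes and 2 of 13 Tas2r probes. In all 5 lines it was V1rc8, V1rb8 and Tas1r1.

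The study compared the genotypes to ask whether loss of ECAT11 changes expression in ESCs. Of the 228 detected Olfr probes, 224 passed the filter of a clean signal on at least 1 array and were tested by limma within the 28972 probes that passed it. None was called at an adjusted p under 0.05 and a change over 2-fold, where 1 probe was called in all (0.00345%). The smallest adjusted p among them was 0.23 (limma, for Olfr545), a probe above background in #620-6 alone, at -5.91. The median log2 difference, ECAT11EGFP/EGFP minus WT, was -0.15 over the 224 and -0.019 over all tested probes. It was 0.085 without RF8, so its sign rested on that line, and it was 0.067 with another background correction (normexp). Within slide 1, where #620-6 was set against both WT lines, it was -0.19, against -0.025 over all tested probes. The marks of these same arrays had chosen the probes, so that this value is no independent check. The other Olfr probes, not detected there, also read lower in #620-6, with a median of -8.32 against -8.11 in RF8 and -8.04 in #620-2.

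At an unadjusted p under 0.05 with a change over 2-fold, 24 of the 224 Olfr probes passed (10.7%), 16 higher and 8 lower in the knock-in lines, against 3.34% of all tested probes, 679 higher and 288 lower. The split turned to 7 higher and 14 lower with quantile normalization and to 14 and 21 without #620-2, and it was 16 and 16 without RF8, so that no direction can be given. None of the 24 was above background on all 5 arrays, and 8 were above background in every line of the higher group. The Olfr probes were chosen by marks on slide 1 arrays that enter this fit, 90 of the 228 through 1 of them alone. Wide gaps are thus partly built into the choice, and the share of 10.7% cannot be compared with that of all probes. With normexp 0 passed, and with a filter asking for a clean signal on 3 arrays 2 did. The signals of an unmeasured probe also differed by slide, with a median over other Olfr probes of -8.32 to -8.04 on slide 1 and -6.65 to -6.36 on slide 2. Groups did not overlap for 51 of 223 Olfr probes (22.9%), against 23.5% of all tested probes with a value on every array.

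Among Olfr probes above background on at least 3 arrays, the 5 widest genotype differences in each direction were as follows. In 9 of the 10 probes named here, all but Olfr570, 1 or 2 lines were not well above background, and their values enter the fitted differences as they stand. Olfr1339 read -5.27 in RF8, -2.53 in #620-2, -6.07 in #620-6, -6.73 in #757-1 and -4.69 in #757-2, a log2 difference of -1.93 ± 1.04 (SE, adjusted p = 0.783, limma). Olfr960 read -3.78 and -5.26 in the WT lines and -8.46, -6.78 and -3.69 in the knock-in lines. The groups overlapped for both. Olfr1339 was not well above background in #757-1 and #757-2, and Olfr960 in #620-6 and #757-1.

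Olfr247 read -2.46 in RF8 and -5.43 in #620-2, against -7.44, -2.33 and -6.47 in the knock-in lines, of which #620-6 and #757-2 were not well above background, and its difference of -1.47 changed to 0.017 without RF8. Olfr570, described above, differed by -1.21 ± 0.73 (SE), carried by RF8. Olfr1305 read -5.47 and -4.73 in the WT lines and -5.78, -6.49 and -6.38 in the knock-in lines, without overlap (-1.12 ± 0.35, adjusted p = 0.58, limma). It was well above background on slide 1 only.

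In the other direction Olfr1065 read -5.84 in RF8, -4.42 in #620-2, -4.22 in #620-6, -3.10 in #757-1 and -3.02 in #757-2, a difference of 1.69 ± 0.60 (SE, adjusted p = 0.628, limma). The groups did not overlap, RF8 was not well above background, and it was the one detected Olfr probe that reached the single limit in all 3 knock-in lines and in neither WT line. Within slide 1 its value in #620-6 lay 0.21 above #620-2. Olfr1099 read -5.23 and -8.08 in the WT lines and -3.01, -6.64 and -2.63 in the knock-in lines, with #620-2 and #757-1 not well above background. The fitted differences of Olfr1099, Olfr1189, Olfr1344 and Olfr62 were 1.56 to 2.57, and their groups overlapped except for Olfr62, whose WT lines read -5.63 and -5.78 and whose knock-in lines -5.20, -2.23 and -5.02, the last of them not well above background. The second probe of Olfr1344, between -5.11 and -4.57 in all lines, did not show the difference of the first. Olfr1189, for example, read -8.18 and -5.15 in the WT lines and -5.89, -6.67 and -1.97 in the knock-in lines, with RF8 and #757-1 not well above background. Olfr1344 was not well above background in #620-2 and #757-1.

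In both WT lines and no knock-in line 14 Olfr probes were above background, 1.47% of all 951. For probes of other genes it was 229, which is 0.803% of the 28502 detected on slide 1 by the same rule, where the 14 are 6.14% of 228. Olfr probes detected in all knock-in lines and no WT line numbered 0, against 13 (0.0323%) of the 40222 probes for other genes. Such probes also had to pass the higher slide 2 limits. For 9 of the 14 both WT values lay under the slide 2 limits, so that slide 2 could not have shown them at that level. With the single limit none of the detected Olfr probes passed in both WT lines and in no knock-in line. For #757-1 and #757-2 the line and the slide cannot be told apart, and #620-6 was the one knock-in line measured with a limit like that of the WT lines.

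Olfr1518 read -3.07 in RF8 and -4.51 in #620-2, and -7.32, -6.74 and -6.41 in the knock-in lines, where it was not well above background. WT over knock-in was at least 2.28-fold, with each unmeasured line placed at the lowest signal well above background on its array (adjusted p = 0.379, limma). Olfr1203 read -2.98 and -4.45 against -8.27, -5.08 and -6.32, at least 2.4-fold (adjusted p = 0.653, limma). By the same group means Olfr1261 was at least 1.55-fold higher, and Olfr50 and Olfr8 at least 1.19-fold. A WT line read under both slide 2 limits for Olfr1518, Olfr1261 and Olfr50, each time #620-2, and for Olfr8, there RF8. For Olfr1203, #620-2 read under the limit of #757-2 only. The probes were chosen by these same detection marks, so that the folds are a description. For the other 9, Olfr15, Olfr190, Olfr281, Olfr521, Olfr598, Olfr740, Olfr1240, Olfr1386 and Olfr1519, no fold could be given. The probes of the first 2 are printed because they carried the widest such differences, with G and C again in capitals.
Olfr1518: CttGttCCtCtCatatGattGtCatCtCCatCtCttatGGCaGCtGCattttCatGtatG
Olfr1203: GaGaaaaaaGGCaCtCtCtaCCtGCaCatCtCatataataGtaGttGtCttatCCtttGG
They lie at chr10:128753016-128753075 and chr2:88675524-88675583 (mm7). The second probe of Olfr1518 was above background in none of the 5 lines.

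**Figure D5:**
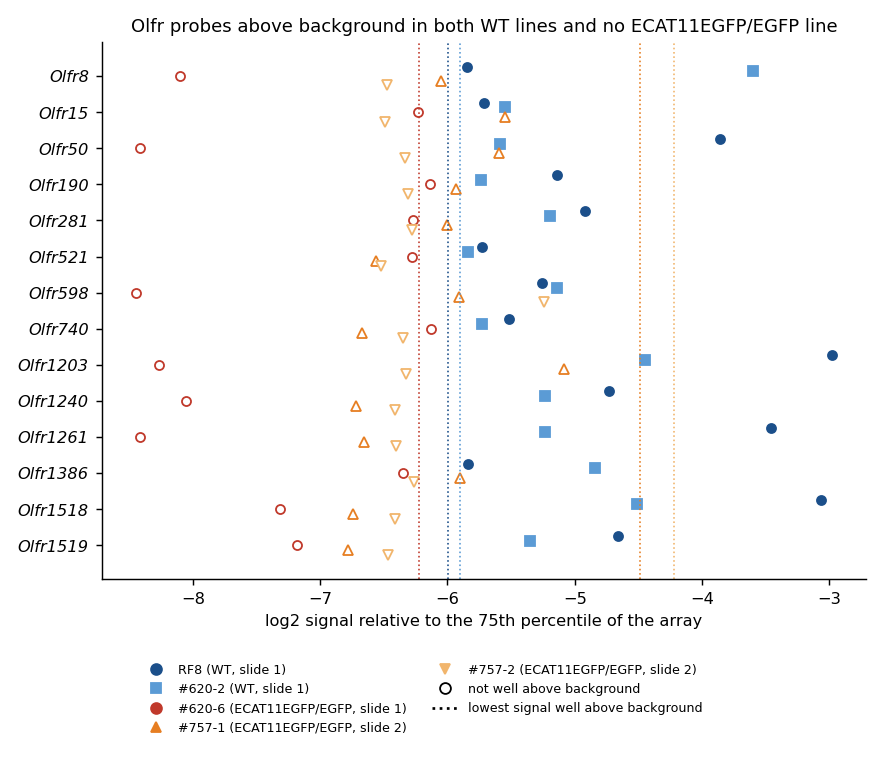
Log2 signal, relative to the 75th percentile of the array, of the 14 Olfr probes above background in both WT lines and in no ECAT11EGFP/EGFP line, with open symbols for values not well above background. Dotted lines mark the lowest signal well above background on each array; most WT values lie below the slide 2 limits of -4.49 and -4.22.

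The lines also differ by sex label, with #620-2 and #620-6 labelled female. This split also separates the lines whose names begin with 620 from the rest, and sex label and line name cannot be told apart. None of the 224 Olfr probes was called, against 99 of 28972 in all (0.342%), and the smallest adjusted p was 0.087 (limma, for Olfr891). At unadjusted p 20 passed (8.93%), 5 higher and 15 lower in the female lines, against 7.33% of all tested probes, 1254 higher and 870 lower, so that the share was near the background. The split was 6 higher and 4 lower with quantile normalization and 20 and 17 without #620-6, so that no direction can be given here either. Groups did not overlap for 61 of 223, or 27.4%, against 39% of all tested probes. These shares carry the same limit from the choice of the Olfr probes. With the slide as a block 4 were called, Olfr16, Olfr444, Olfr568 and Olfr914, where 149 of all probes were (0.514%). With quantile normalization Olfr31 was, where 207 were (0.714%). Each of the 4 was above background in RF8 alone, Olfr16 at -3.64, Olfr444 at -4.11, Olfr568 at -4.76 and Olfr914 at -3.60, and Olfr31 in #620-6 alone, at -5.96. The female lines both lay on slide 1, with RF8 as the one male line there.

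Olfr1444 was the one of the 20 above background on all arrays. Its female lines averaged -2.81 and its male lines -1.61, a log2 difference of -1.20 ± 0.18 (SE, adjusted p = 0.0911, limma), which did not pass the threshold. Among probes seen on at least 3 arrays, Olfr522 read -4.87 and -3.99 in the female lines and -5.75, -6.23 and -6.44 in the male lines, a difference of 1.71 ± 0.36 (SE, adjusted p = 0.133, limma). Olfr164 read -5.21 and -4.47 against -5.58, -5.63 and -6.51 (1.07 ± 0.40, adjusted p = 0.273, limma). Both were above background in 1 of the 3 male lines, RF8, and #757-1 and #757-2, with their higher limits, did not measure them. In RF8 both read below the female lines.

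The fitted differences of Olfr437, Olfr982 and Olfr1339 were 0.91 to 1.89 towards the female lines, and Olfr62, Olfr247, Olfr544, Olfr960 and Olfr1344 differed by 1.20 to 2.68 towards the male lines. All but Olfr544 had 1 or 2 lines not well above background. Without #620-2 those of Olfr1339 and Olfr982 turned to -0.50 and -0.95, and with the slide as a block that of Olfr62 turned to 0.14. The difference of Olfr544, -1.22 ± 0.59 (SE), followed its high values on slide 2. Within slide 1 and 1 sex label, #620-6 was set against #620-2 with 1 line per genotype and no test. There the median log2 difference of the 224 was -0.062, with 36 higher and 43 lower by over 2-fold in #620-6, or 35.3% in all. Of all tested probes 6.51% were higher and 5.09% lower by as much. The 228 Olfr probes were chosen by marks on these same arrays, 26 through #620-2 alone and 32 through #620-6 alone. Wide gaps are thus built into the choice, and the share cannot be compared with that of all probes.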

How the data were processed

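The authors hybridized total RNA of 5 ESC lines to one-colour Agilent mouse arrays and deposited, per spot, the intensity after background correction by Feature Extraction 9.5.3.1, with no normalization between arrays, and log2 values of these arrays as a table. Differences between arrays in the deposited log2 table had a slope of 0.9996 against those of the values used here. Marks of the extraction gave detection, which followed a sharp limit on the background-subtracted intensity of each array. Distance to that limit was therefore measured as a ratio to it.

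The background-corrected intensity was divided by the 75th percentile of each array's non-control spots and put on the log2 scale. Marked spots (0.335%) were set missing, and spots of a probe were averaged. Probes positive, well above background and unmarked on at least 1 array were kept (28972 of 41174). A probe counted as detected where any of its spots was. Groups from the labels were compared in R 4.3.3 by limma 3.58.1 and Benjamini-Hochberg adjustment over all kept probes. With 2 lines against 3, no exact permutation test can reach a p under 0.1. Genes were named through RefSeq (GRCm38.p6) accessions for 225 detected probes and through symbols for 3. Probe positions are those of the files (mm7). Genes named were those detected in all lines (at most 12), those with the 5 widest differences in each direction seen on at least 3 arrays, those detected in 1 genotype only, those nearest the limit, those with several probes, and listed pathway genes detected in all lines. The members and lists were chosen with earlier results of these data known. The fits were tested on simulated data. Alternatives were another background correction, normalization, filter, test and limit, the deposited table, slide and sex label as covariates, and leaving out each line. Number of arrays limits the precision.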

Additional observations from a re-analysis of the deposited data

How the results depend on the processing

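No Olfr probe was called by genotype under any of the 14 alternatives. The count at unadjusted p by genotype, 24, was 0 with normexp, 2 with the stricter filter and 13 with the methods' t-test, and 19 to 35 with a line left out. The median log2 difference by genotype, -0.15, was 0.067 with normexp and -0.18 to 0.085 with a line left out. By sex label 1 Olfr probe was called under quantile normalization, 4 under a slide block and 0 with a line left out. The count at unadjusted p by sex label, 20, was 0 with normexp, 10 under quantile normalization, 3 with the stricter filter and 38 under a slide block, and 21 to 37 with a line left out, the highest without #620-6. The stricter filter left 97 Olfr probes to test. The cause of the other shifts was not tested. The 228 detected probes became 138 when 2 slide 1 arrays were asked for, 87 when 3 were, 64 with 1 limit for all arrays (chosen after seeing the data) and 196 to 202 with a line left out. On slide 2, 47 became 20 when both arrays were asked for. Differences that changed sign were those of Olfr247 by genotype (0.017 without RF8, and -3.01 to 0.017 with a line left out), and by sex label those of Olfr62 under a slide block (0.14), Olfr1339 (-0.50 to 3.04 with a line left out) and Olfr982 (-0.95 to 2.76), both lowest without #620-2. The labels name no pairs of lines, and only #620-2 and #620-6 share a number in their names across the genotypes. No paired analysis was therefore made. Signal over background limits what slide 2 can show, since its limit lay higher on the log2 scale.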
